A study of Mus musculus with 8 samples.

Results

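Chemokines and chemokine receptors were examined as a gene family in the ventral prostate of hSKP2-KI and wild-type (WT) mice. The family was taken by symbol from the 36333 genes of the deposited expression table, as every gene named Ccl, Cxcl, Ccr, Cxcr or Ackr with a number, together with Cx3cl1, Cx3cr1, Xcl1 and Xcr1. This gave 60 genes, 37 ligands and 23 receptors. Expression was given as TPM, reads per transcript length scaled to the same total in every library. The filter for testing was 1 TPM or more in 4 or more mice, which 29 of the genes passed and 31 did not.

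Chemokines are small secreted proteins that guide the movement of leukocytes and other cells along gradients. They bind G protein-coupled receptors, and the spacing of their conserved cysteines gives the CC, CXC, CX3C and XC classes. The atypical receptors, the Ackr genes, bind chemokines without G protein signalling and take them up, which shapes the gradient that the signalling receptors read. In glandular tissues such as the prostate, ligands are made by epithelium, fibroblasts, endothelium and resident macrophages, while most signalling receptors are carried by leukocytes.

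The mice compared were 12 months of age, 4 hSKP2-KI and 4 WT, with RNA of the ventral lobes sequenced as 1 library per mouse. In hSKP2-KI mice a P2A-hSKP2 coding sequence, which encodes the human F-box protein SKP2, sits in exon 1 of the endogenous probasin gene on the X chromosome, so that the probasin promoter drives it in prostate epithelium. Knock-in males came from heterozygous hSKP2-KI females and WT FVB/N males, and the study's methods do not name the strain of those females. Which founder line supplied the sequenced mice is not stated in the sources used here. The comparison asks how the knock-in changes the prostate and the cells around the epithelium, and the chemokine system is the part of that question described below.

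Skp2 was measured at 1.05 to 2.27 TPM in the WT mice and 37.3 to 60.6 TPM in the hSKP2-KI mice, as labelled. The reads were mapped to the mouse genome and the insert is human, and how far human SKP2 reads entered this value was not tested. The listed ventral prostate secretory genes summed to between 322229 and 459455 of the 1000000 TPM in every mouse. TPM has a fixed total, and the median log2 fold change (log2FC, hSKP2-KI minus WT) of the 13080 genes tested was 0.23 in the values as deposited and -0.02 after median-ratio scaling, so results are given under both. A pair of mice stood apart for chemokine genes. WT replicate 3 had the highest value of the WT mice for 12 of the 29 tested family members (41.4%), against 14.0% of all tested genes, and its B cell markers summed to 21.9 TPM, against 1.76 to 2.92 TPM in the other WT mice. hSKP2-KI replicate 2 had the highest value of its genotype for 17 of the 29 (58.6%), against 30.6% of all tested genes, and its macrophage markers summed to 343 TPM, against 165 to 184 TPM in the other hSKP2-KI mice. Where a call was lost or gained without either mouse, the value without it is given. In bulk tissue, a change in the number of cells of a type and a change in RNA per cell cannot be told apart.

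As deposited, chemokine and receptor transcripts were higher in hSKP2-KI prostates across several ligand classes, and no member was called lower with all 8 mice. After median-ratio scaling the ligands called among the 60 genes were all of the CC class, namely Ccl6, Ccl9 and Ccl21a. Pf4, a CXC ligand that the rule on names leaves out, was also higher under that scaling (log2FC 0.88, adjusted p = 0.00959). With the TPM as deposited, 16 of the 29 tested members had an adjusted p under 0.05 and were higher (55.2%), against a background of 32.7% of all genes tested, by limma on log2(TPM + 1) with Benjamini-Hochberg adjustment over all genes. None was lower, where 1.23% of all genes were. The median log2FC of the members was 0.71, against 0.23 for all genes tested. Of the 29 members, 26 lay above 0, and the share of all genes above 0 was not counted under either scaling. After median-ratio scaling, 4 members were higher (13.8%), against 6.64% of all genes, and none was lower, against 4.76%. The median of the members was then 0.45, against -0.02 for all genes, and 22 members lay above 0. The same backgrounds, 32.7% as deposited and 6.64% after median-ratio scaling, apply to the counts higher in each group and marker list below. Among the tested members, 10 had all 4 hSKP2-KI mice above all 4 WT mice (34.5%), which is close to the background of 34.0%. After median-ratio scaling this held for 5 (17.2%, background 9.68%). Without WT replicate 1, the count of 16 fell to 10 (34.5%, against 21.7% of all genes in that fit). With no filter on low values, 2 of the 60 members were higher (3.33%), below the 4.34% of all genes. With WT replicate 3 and hSKP2-KI replicate 2 both left out, 12 members were higher (41.4%, against 14.2% of all genes), 10 of them among the 16, and Ccl2, Ccl11, Ccl24, Cxcl12, Cxcl16 and Cx3cr1 were not called.

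**Figure D1:**
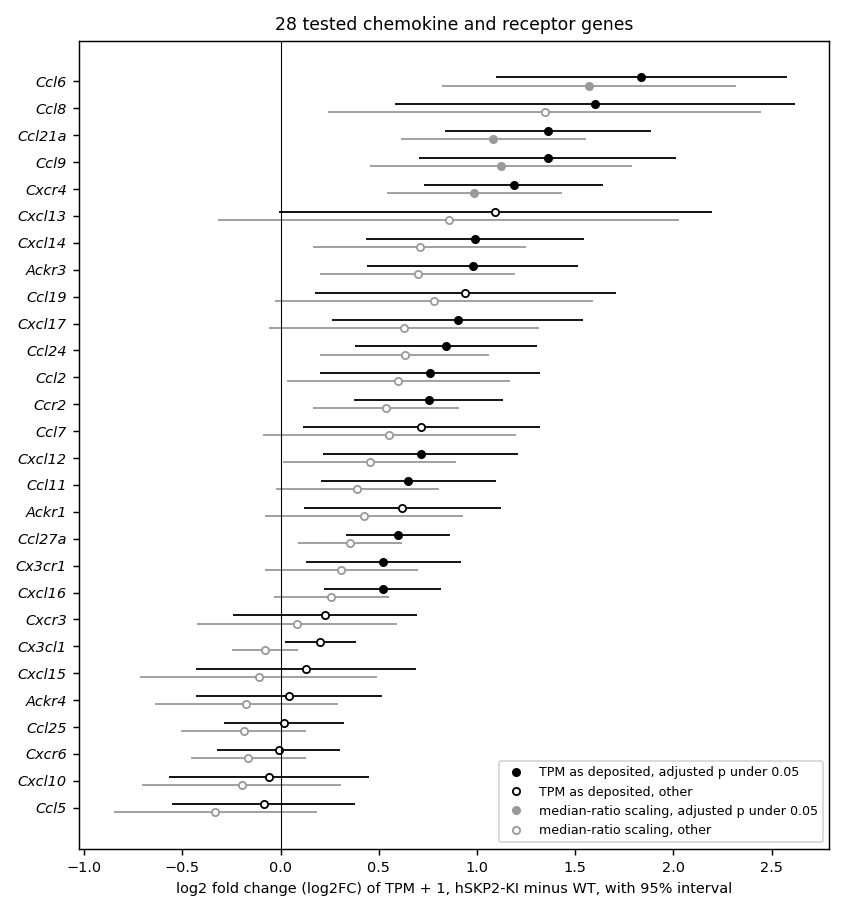
Log2FC of (TPM + 1), hSKP2-KI minus WT, with its 95% interval, for 28 of the 29 tested members, with the TPM as deposited in black and after median-ratio scaling in grey. Filled points have an adjusted p under 0.05, 16 of them in black and 4 in grey, and the grey points lie to the left of the black ones.

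By summed TPM, the 37 ligands together stood at 227 ± 34.3 (SD, n = 4) in WT and 439 ± 86.6 (SD, n = 4) in hSKP2-KI prostates. The 23 receptors stood at 51.0 ± 12.95 and 97.0 ± 24.0 (SD, n = 4 each). Every hSKP2-KI mouse had a higher sum of ligands than every WT mouse, from 377 to 567 TPM against 176 to 247 TPM. Most of the ligand signal came from 3 genes, Cxcl14, Ccl21a and Cx3cl1, and without them the sums were 80.5 to 128 TPM in WT and 159 to 274 TPM in hSKP2-KI prostates. These sums are descriptions of the TPM as deposited and were not tested.

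**Figure D2:**
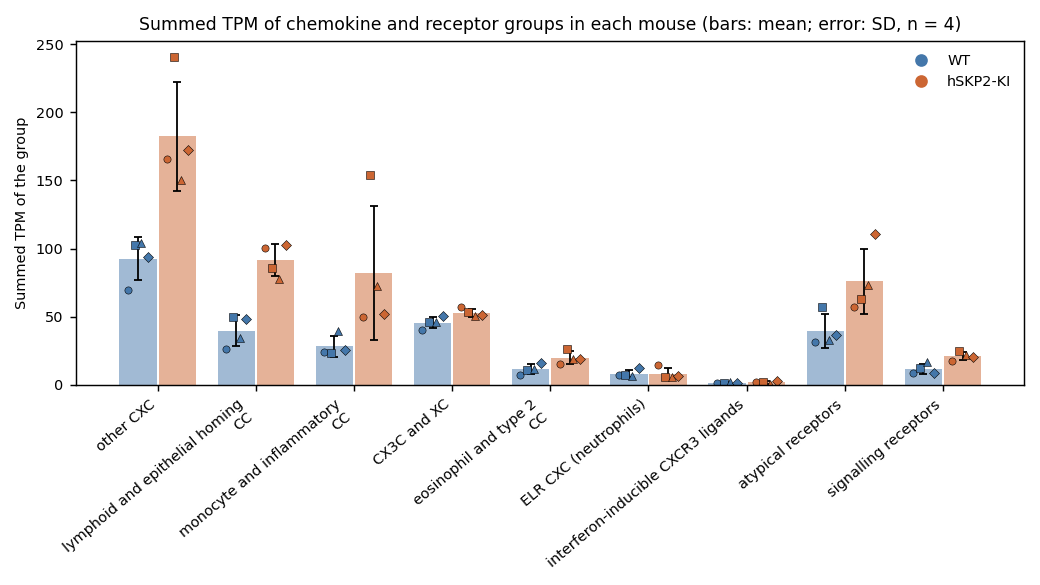
Summed TPM of each group of ligands and receptors in each mouse (vertical axis, linear), with bars at the mean and error bars of 1 SD over 4 mice per genotype. The group of Cxcl12, Cxcl13, Cxcl14, Cxcl16 and Cxcl17 is the most abundant, and the neutrophil and CXCR3 ligands stay low in both genotypes.

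Cxcr4, Ccl21a, Ccl6 and Ccl9 were the 4 members higher under both scalings. Their first 150 upstream bases are shown because these genes were called both as deposited and after median-ratio scaling. The sequences are from RefSeq on GRCm38.p6, are written 5′ to 3′ on the strand of the gene, and end at the base before the annotated start. All 4 genes lie on the minus strand. Capitals mark matches on either strand to the TATA box motif TATAAA, to the core motif of ETS factors GGAAGT or to the NF-kB consensus.
Cxcr4, chr1:128592300-128592449: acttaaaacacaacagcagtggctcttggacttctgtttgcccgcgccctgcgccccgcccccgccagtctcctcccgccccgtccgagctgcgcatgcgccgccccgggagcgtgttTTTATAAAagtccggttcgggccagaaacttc
Ccl21a, chr4:42773992-42774141: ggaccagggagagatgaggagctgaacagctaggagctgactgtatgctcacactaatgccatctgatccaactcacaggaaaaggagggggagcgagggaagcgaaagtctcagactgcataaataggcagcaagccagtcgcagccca
Ccl6, chr11:83593088-83593237: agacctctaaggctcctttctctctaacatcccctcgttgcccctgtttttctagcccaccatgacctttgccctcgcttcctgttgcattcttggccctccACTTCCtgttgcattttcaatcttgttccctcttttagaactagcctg
Ccl9, chr11:83578637-83578786: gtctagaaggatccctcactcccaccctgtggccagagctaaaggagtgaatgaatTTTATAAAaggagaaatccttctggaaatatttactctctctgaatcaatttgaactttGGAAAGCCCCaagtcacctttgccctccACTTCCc

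In Cxcr4 the TATAAA began 30 bases before the start, with an overlapping match on the other strand at 32. In Ccl9 the same pair of overlapping matches began 92 and 94 bases before the start, the NF-kB match at 35 and the GGAAGT match at 7, the latter pair both on the other strand. Ccl6 had a GGAAGT match on the other strand at 48, and Ccl21a had no match to these motifs in this window. Ccl6 and Ccl9 are neighbours on chromosome 11 and share a run of 13 bases, GCCCTCCACTTCC, which holds their GGAAGT match. Of 27025 promoter windows of the same length, 8.08% held TATAAA, 13.9% GGAAGT and 4.41% the NF-kB consensus. Among the 46 family members matched to a promoter, 9 (19.6%), 12 (26.1%) and 8 (17.4%) held them. Many members arose by duplication and some share upstream sequence, as Ccl6 and Ccl9 do, so these are not counts of independent promoters. A match describes the letters of the window and was not tested for binding.

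Among the CC ligands of monocytes and inflammation, 4 of the 6 tested members were higher as deposited, namely Ccl6, Ccl8, Ccl9 and Ccl2, and none was lower. Of all genes tested, 32.7% were higher as deposited. After median-ratio scaling 2 were higher, Ccl6 and Ccl9, where 6.64% of all genes were. The group summed to 28.2 ± 7.77 TPM in WT and 82.1 ± 49.0 TPM in hSKP2-KI prostates (SD, n = 4 each), with 154 TPM in hSKP2-KI replicate 2 and 49.7 to 72.6 TPM in the other hSKP2-KI mice. Ccl6 (chr11:83587886-83593087), a rodent chemokine of macrophages and other myeloid cells, was measured at 6.0, 8.68, 9.99 and 11.7 TPM in WT replicates 1 to 4 and at 19.9, 76.1, 33.4 and 26.7 TPM in hSKP2-KI replicates 1 to 4. The genotypes did not overlap, and hSKP2-KI replicate 2 was the highest by far. Its log2FC of 1.84 (SE 0.34, adjusted p = 0.004) was the largest of the tested members. Without hSKP2-KI replicate 2 it was 1.46 (adjusted p = 0.00296). After median-ratio scaling it was 1.57 (adjusted p = 0.0192), a call that was lost without WT replicate 1 (adjusted p = 0.0542).

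Ccl9 (chr11:83572917-83578636), another myeloid chemokine, which signals through Ccr1, was measured at 2.47, 2.99, 3.54 and 2.87 TPM in the WT and 6.08, 21.0, 7.5 and 6.99 TPM in the hSKP2-KI mice. All hSKP2-KI mice were above all WT mice, and hSKP2-KI replicate 2 again stood far above the rest. The log2FC was 1.36 (SE 0.30, adjusted p = 0.00832), and 0.99 without that mouse (adjusted p = 0.0023). After median-ratio scaling it was 1.12 (adjusted p = 0.0401). That call was kept without hSKP2-KI replicate 1 or 2 and lost without any 1 of the 4 WT mice, hSKP2-KI replicate 3 or hSKP2-KI replicate 4, with an adjusted p from 0.0543 to 0.089.

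Ccl8 (chr11:82115185-82116799), a chemokine of resident macrophages, was measured at 4.46, 2.85, 15.0 and 3.54 TPM in the WT mice and at 12.2, 39.1, 20.3 and 10.5 TPM in the hSKP2-KI mice. WT replicate 3 lay above hSKP2-KI replicates 1 and 4, so the genotypes overlapped. The log2FC was 1.60 (SE 0.46, adjusted p = 0.0245), and 1.34 after median-ratio scaling (adjusted p = 0.106). Without WT replicate 3 it rose to 2.05 (adjusted p = 0.00688), and to an adjusted p of 0.0277 under median-ratio scaling. The call was lost without WT replicate 1, 2 or 4 or hSKP2-KI replicate 2 or 3 (adjusted p from 0.0515 to 0.0648), with 1.24 and 0.0558 without hSKP2-KI replicate 2. With WT replicate 3 and hSKP2-KI replicate 2 both left out, it was 1.69 (adjusted p = 0.00417).

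Ccl2, the main ligand of the monocyte receptor Ccr2, was low, at 0.524, 0.677, 1.07 and 1.82 TPM in the WT mice and 1.99, 4.11, 2.53 and 1.29 TPM in the hSKP2-KI mice. WT replicate 4 was above hSKP2-KI replicate 4. Its log2FC was 0.76 (SE 0.25, adjusted p = 0.0402), and 0.60 after median-ratio scaling (adjusted p = 0.155). The call was kept without WT replicate 4 or hSKP2-KI replicate 4 and lost without any other mouse (adjusted p from 0.0529 to 0.11). It was 0.79 (adjusted p = 0.0714) without WT replicate 3 and 0.56 (adjusted p = 0.095) without hSKP2-KI replicate 2. Ccl7, another Ccr2 ligand beside it on chromosome 11, had a log2FC of 0.72 (adjusted p = 0.0628), and 0.98 without hSKP2-KI replicate 4 (adjusted p = 0.0123). Ccl5, a chemokine made by T and natural killer cells, ran from 4.22 to 8.25 TPM in WT and 4.75 to 9.15 TPM in hSKP2-KI prostates, with a log2FC of -0.09 (95% interval -0.55 to 0.38, adjusted p = 0.754). Ccl3, Ccl4 and Ccl12 did not pass the filter, and of these Ccl12 alone reached 1 TPM, at 1.98 in hSKP2-KI replicate 3.

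The macrophage markers moved with this group. Of the 6 markers, all tested, 5 were higher as deposited and 0 after median-ratio scaling, and their sum ran from 72.3 to 155 TPM in WT and 165 to 343 TPM in hSKP2-KI prostates, with the highest value of each genotype in WT replicate 3 and hSKP2-KI replicate 2. Of the 4 classical monocyte markers, 3 were tested, and F13a1 and Plac8 were higher as deposited and 0 after median-ratio scaling. Their sum of 7.90 to 17.0 TPM in WT and 16.8 to 32.7 TPM in hSKP2-KI prostates came mostly from F13a1 (means of 9.91 and 20.8 TPM), and Ly6c2 was at 2.23 and 1.44 TPM (log2FC -0.26, adjusted p = 0.514). The 4 pan-leukocyte markers, of which 2 were higher as deposited and 0 after median-ratio scaling, summed to 19.7 to 43.8 TPM and 39.0 to 89.2 TPM. Their part in the results for Ccl2, Ccl6, Ccl8 and Ccl9 was not tested.

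**Figure D3:**
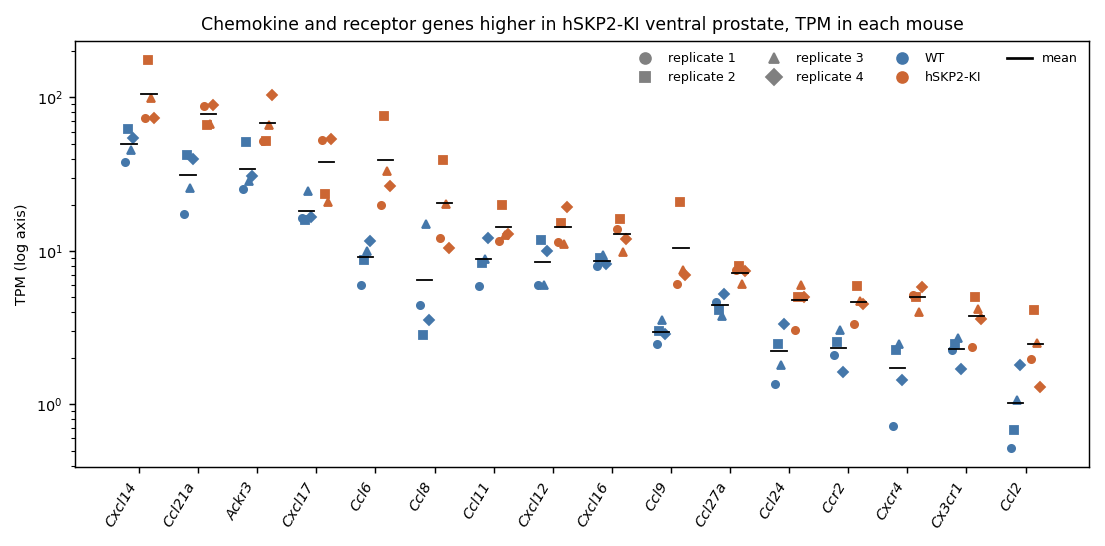
TPM in each mouse, on a log axis, for the 16 members with an adjusted p under 0.05 as deposited. Symbols give the replicate, colours the genotype and black lines the mean of 4 mice, and the orange squares of Cxcl14, Ccl6, Ccl8 and Ccl9 show hSKP2-KI replicate 2 at 175, 76.1, 39.1 and 21.0 TPM.

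Among the CC ligands of lymphoid and epithelial homing, Ccl21a and Ccl27a were higher as deposited among 4 tested members, where 32.7% of all genes were. After median-ratio scaling Ccl21a alone was, where 6.64% of all genes were. Ccl21a (chr4:42772860-42773991), the Ccr7 ligand that lymphatic endothelium presents to dendritic cells and T cells, was measured at 17.4, 42.3, 25.5 and 39.6 TPM in the WT mice and at 87.9, 66.7, 67.5 and 89.9 TPM in the hSKP2-KI mice. No WT mouse reached the lowest hSKP2-KI mouse. The log2FC was 1.36 (SE 0.24, adjusted p = 0.00355) as deposited and 1.08 (adjusted p = 0.0142) after median-ratio scaling, and both calls were kept when any 1 mouse was left out.

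Ccl21a has near-identical copies in the mouse genome, between which reads may be divided. Ccl21b was listed at 0 in all mice, and the copies Gm21541, Gm13304 and Gm10591 were at 1.71 to 4.06 TPM except in WT replicate 2, where they stood at 11.0, 10.1 and 12.1 TPM. Summed with these copies, the Ccl21 signal was 24.2, 75.5, 37.1 and 49.0 TPM in WT and 96.6, 77.1, 74.0 and 97.0 TPM in hSKP2-KI prostates, so that WT replicate 2 overlapped the hSKP2-KI mice. The log2FC of the sum was 0.98 (adjusted p = 0.0195) as deposited and 0.70 (adjusted p = 0.0868) after median-ratio scaling, and in the latter the call was lost. Of the 3 lymphatic endothelial markers, 2 were tested. Lyve1 was higher under both scalings, with log2FC values of 1.12 (adjusted p = 0.0105) and 0.87 (adjusted p = 0.0428). Flt4 was called under neither, with 0.38 (adjusted p = 0.132) and 0.21 (adjusted p = 0.467). Lyve1 also gave most of the markers' sum, with means of 5.96 TPM in WT and 13.8 TPM in hSKP2-KI prostates. The 3 markers summed to 3.68, 11.0, 7.56 and 8.21 TPM in WT and 10.8, 16.4, 20.02 and 18.1 TPM in hSKP2-KI prostates. Their part in the Ccl21a result was not tested.

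Ccl27a (chr4:41769467-41774225), an epithelial ligand of Ccr10, was measured at 4.67, 4.15, 3.76 and 5.21 TPM in the WT and 7.51, 7.95, 6.08 and 7.40 TPM in the hSKP2-KI mice. The ranges did not overlap, and the log2FC was 0.60 (SE 0.12, adjusted p = 0.00602) as deposited and 0.35 (adjusted p = 0.0805) after median-ratio scaling. The gene overlaps Il11ra1, at 95.5 ± 4.36 TPM in WT and 102 ± 20.9 TPM in hSKP2-KI prostates (SD, n = 4 each), and whether reads were counted by strand is not stated. Ccl19, the other Ccr7 ligand, was measured at 0.586, 0.253, 2.03 and 0.359 TPM in WT and 1.61, 5.55, 1.36 and 1.75 TPM in hSKP2-KI prostates. WT replicate 3 was the only WT mouse inside the hSKP2-KI range. The log2FC was 0.94 (adjusted p = 0.0569), 1.22 (adjusted p = 0.0241) without WT replicate 3 and 0.60 (adjusted p = 0.119) without hSKP2-KI replicate 2. Ccl25, the ligand of Ccr9, had a log2FC of 0.02 (95% interval -0.29 to 0.33, adjusted p = 0.918). Ccl28 and Ccl27b stayed under 1 TPM in every mouse, and Ccl20 was under 0.3 TPM except in hSKP2-KI replicate 2, at 1.46 TPM.

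Of the CXC ligands outside the neutrophil and interferon classes, all 5 were tested, and Cxcl14, Cxcl17, Cxcl12 and Cxcl16 were higher as deposited, none of them after median-ratio scaling. Cxcl14 (chr13:56288643-56296811), a chemokine of epithelia and fibroblasts, was the most abundant family member. It was measured at 37.9, 62.1, 45.5 and 54.1 TPM in the WT and 73.3, 175, 99.8 and 73.0 TPM in the hSKP2-KI mice, without overlap. Its log2FC was 0.99 (SE 0.25, adjusted p = 0.0151), 0.71 without hSKP2-KI replicate 2 (adjusted p = 0.0161), and 0.71 after median-ratio scaling (adjusted p = 0.0884).

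Cxcl17, a mucosal chemokine that attracts myeloid cells, divided the hSKP2-KI mice. Replicates 1 and 4 stood at 52.4 and 53.9 TPM, and replicates 2 and 3 at 23.6 and 20.9 TPM. The WT mice stood at 16.3, 15.8, 24.4 and 16.6 TPM, so that WT replicate 3 was above the lower pair. The log2FC was 0.90 (SE 0.29, adjusted p = 0.0361), and 0.63 after median-ratio scaling (adjusted p = 0.216). The call was lost without WT replicate 1, 2 or 4 or hSKP2-KI replicate 1 or 4 (adjusted p from 0.067 to 0.0887).

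Cxcl12, the stromal ligand of Cxcr4 and Ackr3, was measured at 6.01, 11.9, 6.02 and 9.94 TPM in WT and 11.5, 15.2, 11.2 and 19.4 TPM in hSKP2-KI prostates. WT replicate 2 lay above hSKP2-KI replicates 1 and 3. The log2FC was 0.71 (SE 0.22, adjusted p = 0.0332), and 0.45 after median-ratio scaling (adjusted p = 0.162). It lost the call without WT replicate 1 or 3 or hSKP2-KI replicate 2 or 4 (adjusted p from 0.0711 to 0.0922), with 0.59 (adjusted p = 0.0889) without WT replicate 3 and 0.67 (adjusted p = 0.0711) without hSKP2-KI replicate 2. Cxcl16, the membrane-bound ligand of Cxcr6, was at 8.01, 8.95, 9.38 and 8.18 TPM in WT and 13.9, 16.1, 9.86 and 12.1 TPM in hSKP2-KI prostates, without overlap, with a log2FC of 0.52 (SE 0.13, adjusted p = 0.016) and of 0.26 after median-ratio scaling (adjusted p = 0.232). The 5 fibroblast markers were all higher as deposited, and 2 were after median-ratio scaling. Their sum was 369 to 535 TPM in WT and 675 to 1139 TPM in hSKP2-KI prostates. Among the hSKP2-KI mice this sum, Cxcl14 and Cxcl16 were highest in replicate 2, and Cxcl12 and Cxcl17 in replicate 4. The 4 smooth muscle markers were likewise all higher as deposited and 1 after median-ratio scaling, with sums of 1136 to 1415 TPM and 1697 to 2515 TPM. The part of either list in these results was not tested.

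Cxcl13, the ligand of Cxcr5 that gathers B cells into follicles, depended on a single WT mouse. It was measured at 1.31, 3.76, 19.1 and 4.97 TPM in WT and 15.0, 10.6, 8.98 and 13.7 TPM in hSKP2-KI prostates. WT replicate 3 was above every hSKP2-KI mouse, and the other WT mice were below every hSKP2-KI mouse. The log2FC was 1.09 (SE 0.50, adjusted p = 0.106) with all mice. Without WT replicate 3 it was 1.67 (adjusted p = 0.00683), and under median-ratio scaling the adjusted p without it was 0.0214. The B cell markers were also highest in WT replicate 3, and none of the 4 was called. The sum of these markers in the hSKP2-KI mice was 14.9, 12.0, 11.3 and 3.03 TPM, lowest in replicate 4, where Cxcl13 was at 13.7 TPM.

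**Figure D4:**
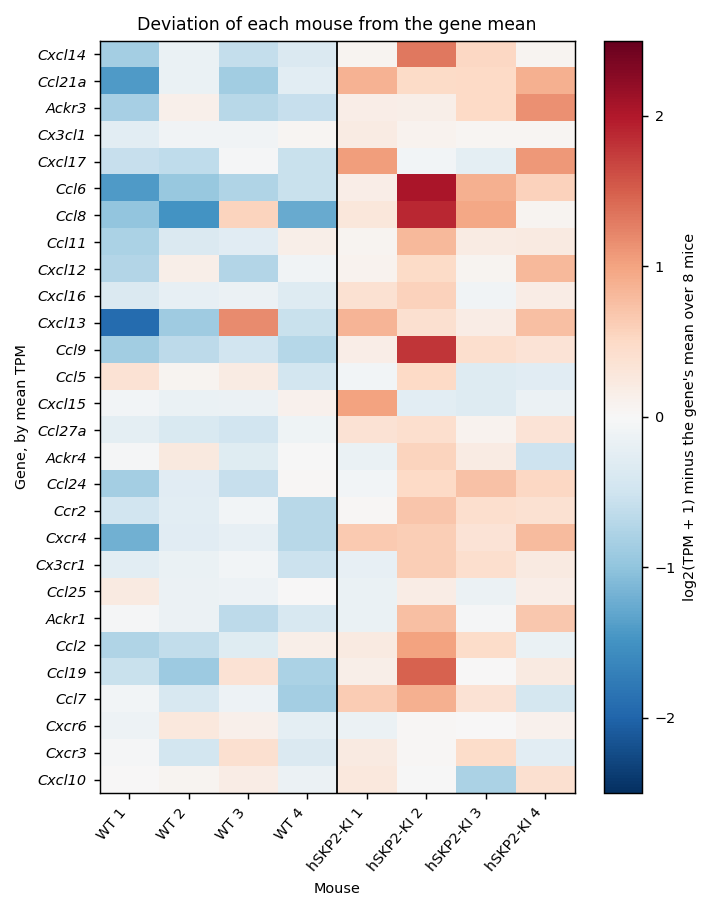
Log2(TPM + 1) of 28 of the 29 tested members in each mouse minus the mean of that gene over the 8 mice, with genes ordered by mean TPM and red above the mean. The column of hSKP2-KI 2 is reddest at Ccl6, Ccl8 and Ccl9, and the column of WT 3 is red at Cxcl13 and Ccl8, where the other WT columns are blue.

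Both tested eotaxins, the ligands of the eosinophil receptor Ccr3, were higher as deposited and neither after median-ratio scaling. Ccl11 was measured at 5.90, 8.39, 8.81 and 12.2 TPM in WT and 11.6, 20.1, 12.8 and 12.9 TPM in hSKP2-KI prostates, with WT replicate 4 above hSKP2-KI replicate 1. Its log2FC was 0.65 (SE 0.20, adjusted p = 0.0322), and 0.39 after median-ratio scaling (adjusted p = 0.203). The call was lost without WT replicate 1, 2 or 3 or hSKP2-KI replicate 2 or 4 (adjusted p from 0.0515 to 0.082). Without WT replicate 3 it was 0.66 (adjusted p = 0.0619), and without hSKP2-KI replicate 2 it was 0.49 (adjusted p = 0.0759). Ccl24 (chr5:135569935-135573123), which macrophages also make, was measured at 1.36, 2.46, 1.82 and 3.34 TPM in WT and 3.06, 4.98, 6.01 and 5.04 TPM in hSKP2-KI prostates. WT replicate 4 was above hSKP2-KI replicate 1. The log2FC was 0.84 (SE 0.21, adjusted p = 0.0141), and 0.63 after median-ratio scaling (adjusted p = 0.0622). That value passed the threshold without WT replicate 4 or hSKP2-KI replicate 1 (adjusted p from 0.0351 to 0.0385). With WT replicate 3 and hSKP2-KI replicate 2 both left out, Ccl24 was not called as deposited (adjusted p = 0.0735). The receptor Ccr3 was under 0.2 TPM in every mouse. Of the type 2 ligands Ccl1, Ccl17, Ccl22 and Ccl26, only Ccl22 reached 1 TPM, at 1.13 in hSKP2-KI replicate 2.

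Neutrophil and interferon ligands were sparse in both genotypes. Of the neutrophil-attracting ELR CXC genes, only Cxcl15 was tested. It was measured at 5.68, 5.22, 5.25 and 6.53 TPM in WT and 12.99, 4.76, 4.56 and 5.27 TPM in hSKP2-KI prostates, high in hSKP2-KI replicate 1 alone, with a log2FC of 0.13 (95% interval -0.43 to 0.69, adjusted p = 0.687) that turned to -0.18 without that mouse and -0.11 after median-ratio scaling. Cxcl2, a neutrophil ligand below the filter, was at 0.702, 1.51, 0.238 and 4.06 TPM in WT and 0, 0, 0.376 and 0.206 TPM in hSKP2-KI prostates, and the genotypes overlapped at WT replicate 3. The neutrophil markers summed to at most 1.16 TPM in WT and 5.10 TPM in hSKP2-KI prostates, and none of the 5 passed the filter. The receptors of these ligands, Cxcr1 and Cxcr2, stayed under 0.2 TPM. Cxcl10, an interferon-inducible ligand of Cxcr3, ran from 0.783 to 1.25 TPM in WT and 0.148 to 1.62 TPM in hSKP2-KI prostates (log2FC -0.06, 95% interval -0.57 to 0.45, adjusted p = 0.848). Cxcl9, the other member of that class in the table, stayed under 1 TPM.

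Cx3cl1 (chr8:94772180-94782427), a membrane-anchored ligand, was among the 4 most abundant members and lay at similar levels in both genotypes. It was measured at 39.8, 45.2, 44.99 and 49.6 TPM in WT and 55.6, 51.4, 49.9 and 49.8 TPM in hSKP2-KI prostates. The ranges only just parted. The log2FC was 0.20 (95% interval 0.02 to 0.38, adjusted p = 0.077), and its sign turned after median-ratio scaling, at -0.08 (95% interval -0.25 to 0.09, adjusted p = 0.539). Xcl1, a ligand of T and natural killer cells, was below the filter at 0.168 to 0.906 TPM in WT and 0.487 to 1.75 TPM in hSKP2-KI prostates.

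Of the 18 signalling receptors with an assigned role, 6 were tested, and Cxcr4, Ccr2 and Cx3cr1 were higher as deposited, where 32.7% of all genes were. After median-ratio scaling Cxcr4 alone was, where 6.64% of all genes were. Cxcr4 (chr1:128588199-128592299), the receptor of Cxcl12 on leukocytes and endothelium, was measured at 0.729, 2.26, 2.46 and 1.44 TPM in WT and 5.20, 5.05, 4.00 and 5.81 TPM in hSKP2-KI prostates. Every hSKP2-KI mouse was well above every WT mouse. The log2FC was 1.19 (SE 0.21, adjusted p = 0.00355), and 0.99 after median-ratio scaling (adjusted p = 0.0158). Both calls were kept when any 1 mouse was left out, with a log2FC as deposited from 0.99 to 1.32. Cxcr4 was also called when no filter on low values was applied, when Ccl27a was the only other member called.

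Ccr2 (chr9:124101918-124109140), the receptor by which classical monocytes leave the blood, was measured at 2.08, 2.54, 3.08 and 1.63 TPM in WT and 3.35, 5.89, 4.72 and 4.53 TPM in hSKP2-KI prostates, without overlap. Its log2FC was 0.75 (SE 0.17, adjusted p = 0.00979), and 0.54 after median-ratio scaling (adjusted p = 0.0652). Without WT replicate 3 or hSKP2-KI replicate 1 the latter passed the threshold (adjusted p from 0.0459 to 0.0482). Cx3cr1, the receptor of Cx3cl1 on macrophages and patrolling monocytes, was measured at 2.25, 2.47, 2.72 and 1.70 TPM in WT and 2.38, 4.98, 4.21 and 3.58 TPM in hSKP2-KI prostates. hSKP2-KI replicate 1 lay among the WT mice. The log2FC of 0.52 (SE 0.18, adjusted p = 0.0443) was called with all mice, and among the fits that left out 1 mouse it was called only without hSKP2-KI replicate 1, the other 7 giving an adjusted p from 0.0559 to 0.112. It was 0.59 (adjusted p = 0.0561) without WT replicate 3 and 0.40 (adjusted p = 0.112) without hSKP2-KI replicate 2. After median-ratio scaling it was 0.31 (adjusted p = 0.281).

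Cxcr3 and Cxcr6 were tested and not called. Cxcr3, the receptor of activated T cells, had 0.23 (95% interval -0.24 to 0.70, adjusted p = 0.396). Cxcr6, the receptor of Cxcl16, had -0.01 (95% interval -0.33 to 0.30, adjusted p = 0.956), while its ligand was higher as deposited. Ccr7, the receptor of Ccl21a and Ccl19, was below the filter at 0.0427, 0.507, 1.31 and 0.0437 TPM in WT and 1.17, 0.838, 0.454 and 0.564 TPM in hSKP2-KI prostates. Cxcr5, the receptor of Cxcl13, stood at 0 to 0.066 TPM in WT replicates 1, 2 and 4, 0.657 TPM in WT replicate 3 and 0.284 to 0.546 TPM in the hSKP2-KI mice, the same order of WT mice against hSKP2-KI mice as its ligand. Ccr10, the receptor of Ccl27a, ran from 0.369 to 0.747 TPM and 0.413 to 1.03 TPM. The receptors of the most abundant homing ligands were therefore near or under 1 TPM in both genotypes.

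Of the 4 atypical receptors, Ackr3 was higher as deposited. Ackr3 (chr1:90203980-90215724), which takes up Cxcl12, was the most abundant receptor, at 25.5, 51.0, 28.4 and 31.0 TPM in WT and 51.8, 51.7, 66.0 and 104 TPM in hSKP2-KI prostates. WT replicate 2 came within 1 TPM of the lowest hSKP2-KI mice, and the ranges did not overlap. The log2FC was 0.98 (SE 0.24, adjusted p = 0.0136), and 0.70 after median-ratio scaling (adjusted p = 0.0703), where it passed the threshold without WT replicate 2 (adjusted p = 0.0365). Ackr1, the venule receptor that carries chemokines across endothelium, ran from 0.965 to 2.04 TPM in WT and 1.77 to 4.21 TPM in hSKP2-KI prostates, with a log2FC of 0.62 (adjusted p = 0.0558). It was called without hSKP2-KI replicate 1 or 3 (adjusted p from 0.028 to 0.0472). Ackr4, which takes up Ccl19, Ccl21 and Ccl25, had a log2FC of 0.04 (95% interval -0.43 to 0.51, adjusted p = 0.88). Ackr2, a scavenger of inflammatory CC ligands, was below the filter at 0.482, 0.317, 0.491 and 0.547 TPM in WT and 0.735, 1.20, 0.956 and 0.871 TPM in hSKP2-KI prostates, and these ranges did not overlap. In the fit with no filter its adjusted p was 0.0669. The 4 blood endothelial markers were all higher as deposited and 2 after median-ratio scaling, with sums of 15.4 to 21.4 TPM in WT and 27.7 to 47.9 TPM in hSKP2-KI prostates, and their part in the Ackr1, Ackr3 and Cxcr4 values was not tested.

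The 31 members below the filter were rare transcripts. Of these, 21 stayed under 1 TPM in every mouse, and 3, namely Ccl21b, Ccl26 and Ccr1l1, were listed at 0 in all 8. When fitted without the filter, none of the 31 was called by limma, and 3 had an unadjusted p under 0.05.

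**Figure D5:**
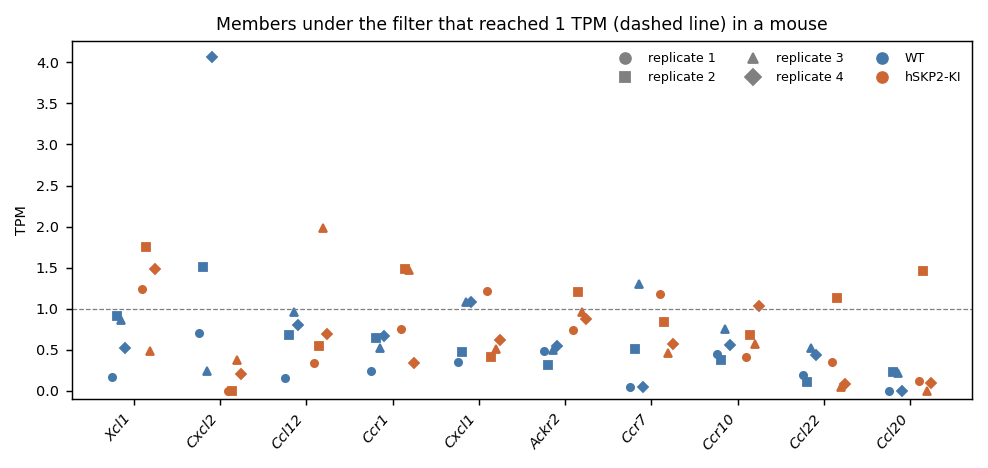
TPM in each mouse, on a linear axis, for the 10 members below the filter that reached 1 TPM in at least 1 mouse. Ackr2 is the only gene of these in which the 4 hSKP2-KI mice lie above the 4 WT mice, and the highest point is Cxcl2 in WT replicate 4 at 4.06 TPM.

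Many members lie in clusters of genes that arose by duplication, and calls as deposited fell on both sides of the threshold within a cluster. On chromosome 11, 3 of the 4 tested members at chr11:82035577-82179812 were higher (Ccl2, Ccl8 and Ccl11, but not Ccl7). The log2FC of Ccl7, at 0.72 (adjusted p = 0.0628), was close to that of Ccl2, at 0.76 (adjusted p = 0.0402). At chr11:83525778-83664683, Ccl6 and Ccl9 were higher and Ccl5 was not. On chromosome 4, Ccl21a and Ccl27a were higher and Ccl19 was not, though its log2FC of 0.94 was above the 0.60 of Ccl27a. After median-ratio scaling, Ccl6, Ccl9 and Ccl21a were the only genes of these clusters called.

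Genes that act downstream of chemokine receptors were compared from a list of 40, of which 37 were tested. As deposited, 19 were higher (51.4%, against 32.7% of all genes) and 0 lower, with a median log2FC of 0.39 against 0.23 for all genes. A gene could pass the filter through the hSKP2-KI mice alone, as Pik3cg did (1 of the 19). Each tested chemokine family member reached 1 TPM in at least 1 WT mouse, but hSKP2-KI mice could still bring it past the filter. Of the members called as deposited, Ccl2 was under 1 TPM in WT replicates 1 and 2, and Cxcr4 in WT replicate 1. Without WT replicate 1, 12 signalling genes were higher (32.4%, against 21.7% of all genes). After median-ratio scaling 2 were higher (5.41%, below the 6.64% of all genes), with a median of 0.14. The pair was Rassf5, an effector of Rap1 in leukocyte adhesion, with log2FC values of 0.60 (adjusted p = 0.00273) as deposited and 0.37 (adjusted p = 0.0269) after scaling, and the arrestin Arrb1, with 0.66 (adjusted p = 0.00328) and 0.39 (adjusted p = 0.018). The G protein subunit Gnai2, the kinase Ptk2b and the GTPase Cdc42 were higher as deposited (log2FC values of 0.47, 0.51 and 0.38, adjusted p = 0.00365, 0.0049 and 0.00538) and not after scaling.

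Some chemokine system genes carry other names. Pf4, the platelet CXC chemokine that resident macrophages also express, was measured at 10.0, 10.8, 9.79 and 16.7 TPM in WT and 23.5, 33.6, 25.8 and 25.4 TPM in hSKP2-KI prostates. No WT mouse overlapped the hSKP2-KI mice, and the log2FC was 1.15 (SE 0.16, adjusted p = 0.00157) as deposited and 0.88 (adjusted p = 0.00959) after median-ratio scaling. Ccrl2 and Dpp4, a chemokine-binding receptor and a protease that trims chemokines, were not called (adjusted p = 0.418 and 0.075), and Ppbp did not pass the filter.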

How the data were processed

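RNA-seq of poly(A) RNA covered 4 hSKP2-KI and 4 WT ventral prostates. The authors trimmed and mapped the reads in CLC software and deposited TPM per gene, each sample summing to 1000000. The submitters' processing notes name mm10 and GRCm38, and counting and strand options are not given in the sources used here. The study's methods name a sequencing depth for the libraries, but TPM keeps no read counts, so the reads behind each value are unknown. The table has 0 columns of other samples.

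The 13080 genes reaching 1 TPM in 4 or more samples were fitted as log2(TPM + 1) in R 4.3.3 by limma 3.58.1, using its mean-variance trend and Benjamini-Hochberg adjustment at 0.05. The added 1 shrinks the fold changes of low genes. The fit was checked on simulated data. Figures used matplotlib 3.10.9 and Python 3.11.15. Gene positions and promoters are RefSeq GRCm38.p6, and the motifs were chosen after the values were seen.

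Groups followed the labels, which call the mice biological replicates. No batch is given. The values of 1 tested member are not reported here. The members and lists were chosen with earlier results of these data known. Full statistics were given for members called under either scaling, with no overlap between genotypes, among the 10 most abundant, or with 1 sample standing apart at 1 TPM or more. Of the signalling list, the 5 smallest adjusted p were named. Other members named with statistics were chosen after their values were seen. Alternatives were median-ratio scaling, rescaling with the 20 most abundant genes removed, quantile normalization, no filter, a minimum mean of 5 TPM, a pseudocount of 0.1, a replicate block and leaving out mice. Leave-one-out under median-ratio scaling, both unusual mice left out, and summed Ccl21 copies were chosen after seeing the data.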

Additional observations from a re-analysis of the deposited data

Results flagged for a closer look

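In 7 of the 70 sets of 4 mice (a member in 1 genotype, reaching at least 1 TPM), 1 mouse stood apart from the other 3 by a gap above Dixon's 95% critical value for 4 samples. For independent, normally distributed values chance gives this in about 1 of 20 sets. The values here were TPM without a log, and the rate over all genes was not counted. Of the 7 sets, 4 were in hSKP2-KI replicate 2 and 2 in WT replicate 3. hSKP2-KI replicate 2 stood high for Ccl9 at 21.0 TPM, Ccl11 at 20.1 TPM, Ccl19 at 5.55 TPM and Ccl20 at 1.46 TPM. WT replicate 3 stood high for Cxcl17 at 24.4 TPM and Ccl8 at 15.0 TPM. hSKP2-KI replicate 1 stood high for Cxcl15 at 12.99 TPM.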

How the results depend on the processing

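The number of chemokine and receptor genes higher in hSKP2-KI prostates, 16 as deposited, was 17 with a pseudocount of 0.1 (58.6%, against 32.5% of all genes). It was 11 of 15 tested with a mean TPM of at least 5 (73.3% against 34.6%). It fell to 2 of 60 with no filter (3.33%, below the 4.34% of all genes), 4 after median-ratio scaling (13.8% against 6.64%), 3 after quantile normalization (10.3% against 5.51%) and 5 without the 20 most abundant genes (17.2% against 6.82%). The cause was not tested. Leaving out 1 mouse gave 10 to 16, lowest without WT replicate 1 (34.5% against 21.7%). Under median-ratio scaling, leaving out 1 mouse gave 2 to 6 higher (6.9% to 20.7%, where 3.35% to 5.81% of all genes were). It gave 0 to 1 lower, the latter Cxcl15 without hSKP2-KI replicate 1. With WT replicate 3 and hSKP2-KI replicate 2 both left out, 12 were higher as deposited (41.4% against 14.2%) and 7 after median-ratio scaling (24.1% against 3.03%). No other setting gave a lower member. Of the signalling genes, 19 as deposited, 7 were higher with no filter (17.5% of 40), 2 after median-ratio scaling, 2 after quantile normalization and 2 without the 20 most abundant genes (5.41% each, below the share of all genes under each), and 12 to 20 with 1 mouse left out, lowest without WT replicate 1.

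The sign turned for Cx3cl1 after median-ratio scaling (-0.0782), quantile normalization (-0.0298) and rescaling without the 20 most abundant genes (-0.0417), and for Cxcl15 under the same settings (-0.111, -0.18 and -0.0933) and without hSKP2-KI replicate 1, with -0.183 to 0.261 over the mice left out in turn.

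Same-numbered mice of the genotypes deviated with correlations of 0.22, -0.11, 0.17 and -0.01 across genes, and 2 of the 4 hSKP2-KI mice correlated best with their own number. These correlations cannot decide whether the numbers pair the mice, since no litter or batch is given. With the replicate block, 17 members were higher (58.6%, against 37.8% of all genes), with Ackr1 and Ccl7 added and Ccl2 lost (adjusted p = 0.0628). In that fit 25 signalling genes were higher (67.6%, against the same 37.8%). Without read counts, the precision of the low values is unknown.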
